A study of Mus musculus with 10 samples.

Results

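Integrins are cell surface receptors made of 1 alpha and 1 beta chain. The genes described here are 10 of the chains that hold cells to the extracellular matrix: Itga1, Itga2, Itga3, Itga5, Itga6, Itga9, Itgav, Itgb1, Itgb3 and Itgb5. They were taken by symbol from a table of 24704 genes, in which all 10 were measured. RNA came from primary liver sinusoidal endothelial cells of mice, in 5 Gata4-LSEC-KO samples ("knockout" below) and 5 samples of sibling controls. Knockout mice carried the Clec4g-icre transgene C57BL/6N-Tg(Clec4g-icre)1.1Sgoe, which drives Cre recombinase from control sequences of Clec4g, a lectin gene of sinusoidal endothelium, together with a floxed Gata4 gene from STOCK Gata4tm1.1Sad/J. For the control siblings the labels say WT and do not say whether a Cre or floxed allele was present. Age and sex are not given. Each sample pooled the livers of 3 mice, and the cells were taken with beads against CD146. The question the design poses is which genes change when GATA4, a zinc finger transcription factor, is deleted in these cells.

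The alpha chain mostly sets which ligand an integrin holds. The chains of Itga1 and Itga2 bind collagens, those of Itga3 and Itga6 bind laminins, the Itga5 chain binds fibronectin, the Itgav chain binds fibronectin, vitronectin and other proteins with the short RGD motif, and the Itga9 chain binds tenascin-C, Svep1, Emilin1 and Vcam1. All these alpha chains can pair with the Itgb1 chain, while those of Itgb3 and Itgb5 pair with the Itgav chain. In healthy liver the sinusoid has no continuous basement membrane, and its endothelium is known for the Itga1 and Itga9 chains, while capillaries with a basement membrane are known for Itga6.

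In the knockout, 2 of the 10 chains rose, the collagen-binding Itga2 (3.73-fold) and the laminin-binding Itga6 (2.24-fold). The chain Itga9 fell (1.35-fold lower), and 7 did not pass the threshold, an adjusted p of 0.05 by limma, a linear model with a shared estimate of spread, after Benjamini-Hochberg adjustment over all 24704 genes. Over all genes, 2.14% passed, 1.3% higher and 0.846% lower. The median log2 fold change of the 10 chains was 0.43, against -0.02 over all genes. The groups did not overlap for 5 of the 10 chains (Itga2, Itga6, Itgav and Itgb5 higher, Itga9 lower), against 4.93% of all genes, of which 2.55% were higher and 2.37% lower in the knockout.

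**Figure D1:**
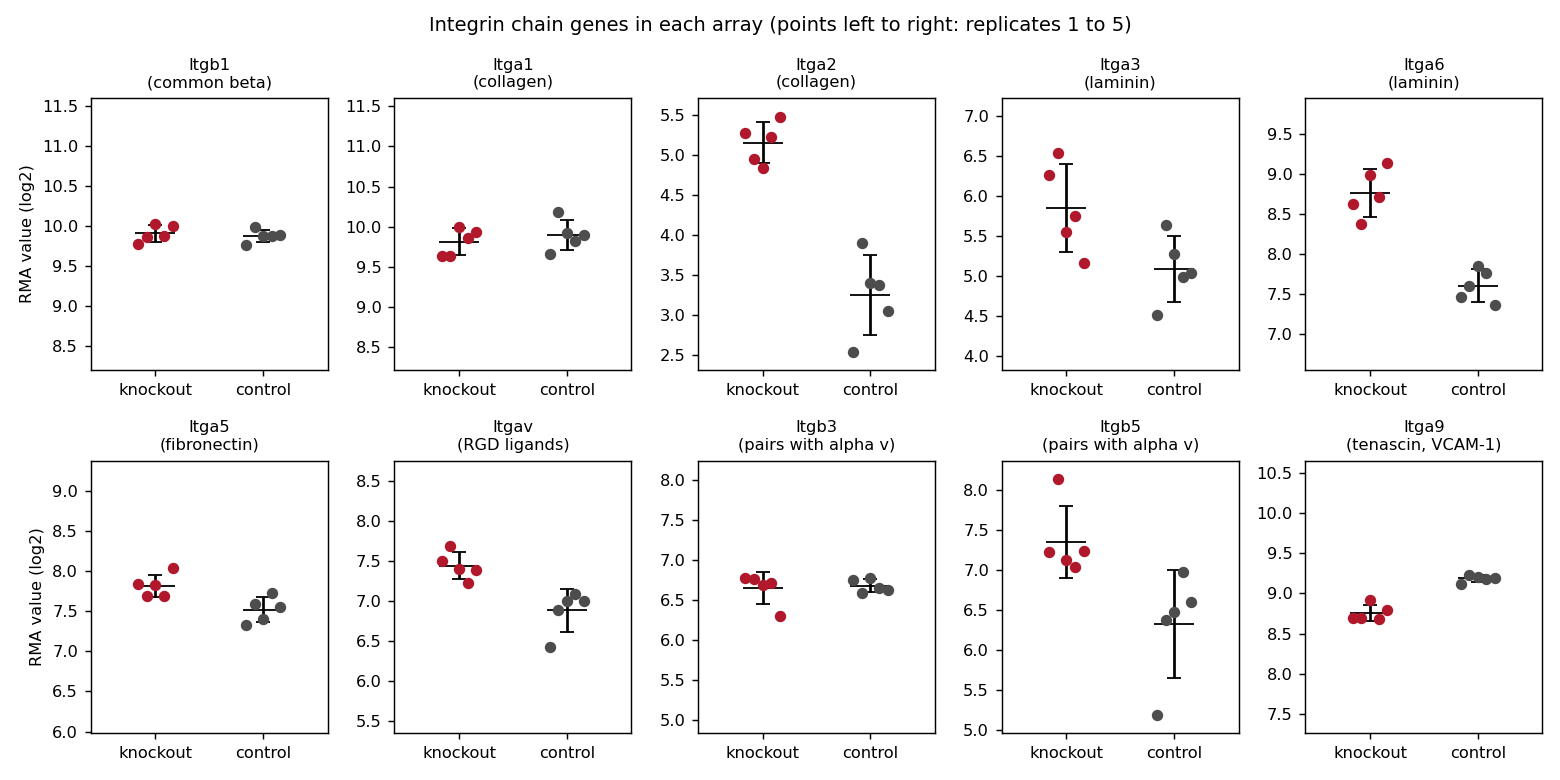
RMA values (log2, y axis) of the 10 integrin chain genes in 5 knockout and 5 control arrays. Points are arrays, the horizontal mark is the group mean and the bar is 1 SD. All panels span the same number of log2 units at different levels. The knockout and control arrays are apart for Itga2, Itga6, Itgav, Itgb5 and Itga9, and mixed for Itgb1, Itga1 and Itgb3.

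**Figure D2:**
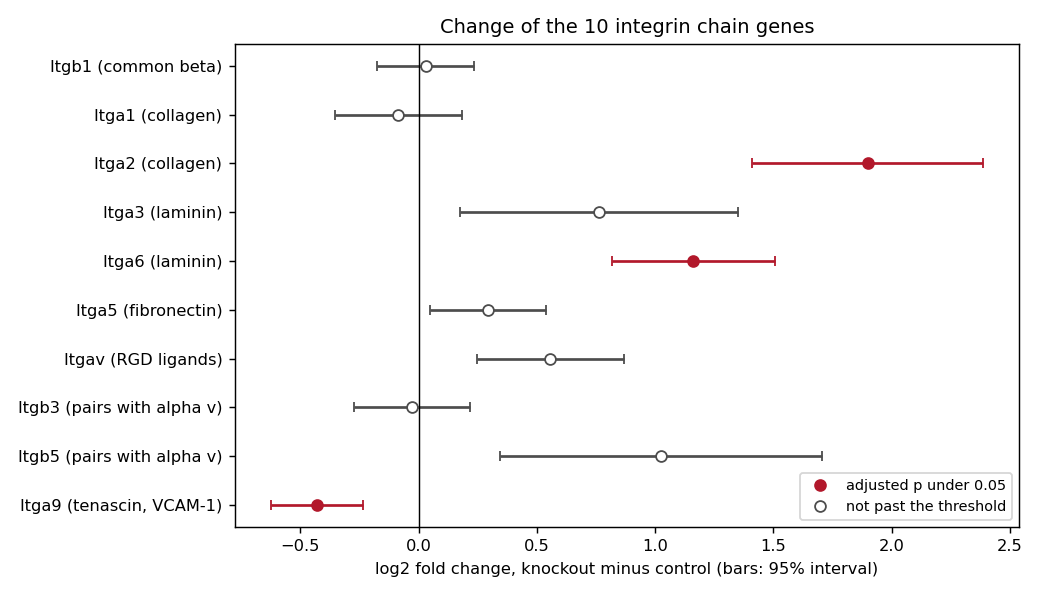
Log2 fold change of each chain gene, knockout minus control (x axis), with its 95% interval. Filled points passed the threshold: Itga2 at 1.90, Itga6 at 1.16 and Itga9 at -0.43. The intervals of Itgb1, Itga1 and Itgb3 hold 0.

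The libraries set limits that touch all these values. The array values are deposited log2 RMA values with a median of 3.71 on each array, and no detection calls were used here. Sinusoidal markers such as Stab2 averaged 10.53 to 10.97 in knockout and 11.00 to 11.27 in control arrays over a list of 10 genes, far above that median. Control replicate 1 stood apart, with correlations across genes of 0.92 to 0.944 to the other arrays, against 0.969 to 0.988 among those. The 529 calls over all genes became 349, 295 and 317 when knockout arrays 1, 2 and 4 were left out in turn, and 321, 321 and 287 when control arrays 3, 4 and 5 were. The Gata4 probe set itself read 8.59 ± 0.24 in knockout and 8.71 ± 0.15 in control arrays (SD, n = 5), with an adjusted p of 0.742 by limma, and the sources used here do not give whether its probes lie in the deleted part. Markers of other cells moved with genotype. Of 10 cholangiocyte markers 3 rose and 7 did not pass, while 9 were higher at an unadjusted p under 0.05 by limma. Their mean was 4.71 to 6.87 in knockout and 3.71 to 4.57 in control arrays. Of 10 neutrophil markers 5 rose, and 7 were higher at that unadjusted level. Their mean was 3.85 to 5.51 in knockout and 2.94 to 3.40 in control arrays. Over all 24704 genes 1747 were higher and 1624 lower at that level. Of 12 markers of stellate cells and fibroblasts 0 passed by limma, 3 had an unadjusted p under 0.05 higher and 1 lower, and the ranges of the mean overlapped (5.95 to 7.72 in knockout, 5.00 to 7.11 in control arrays). Of 10 hepatocyte markers 1 rose and 1 fell, with 3 higher and 1 lower at an unadjusted p under 0.05. Of 12 pan-endothelial, 10 Kupffer cell, 9 platelet and 9 lymphocyte markers 0 passed by limma, with 2, 0, 1 and 1 at an unadjusted p under 0.05. In such bulk samples, more cells of a type and more RNA per cell cannot be told apart.

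Itgb1, the beta chain that most matrix receptors share, read 9.77, 9.86, 10.03, 9.87 and 10 in knockout replicates 1 to 5, against 9.77, 9.99, 9.88, 9.87 and 9.88 in control replicates 1 to 5. The groups overlapped almost fully. The log2 fold change was 0.03 ± 0.09 (SE), and its 95% interval ran from -0.18 to 0.23. Its adjusted p by limma was 0.927.

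Of the collagen-binding chains, Itga1 did not pass and Itga2 had the largest change of the 10. Itga1, a receptor for collagen IV and fibrillar collagens, read 9.64, 9.63, 10, 9.86 and 9.93 in knockout arrays, against 9.66, 10.18, 9.91, 9.82 and 9.90 in control arrays. The groups overlapped, and the log2 fold change was -0.09 ± 0.12 (SE, 95% interval -0.36 to 0.18, adjusted p = 0.814 by limma). Itga2, the chain through which platelets and epithelia hold collagen, read 5.27, 4.95, 4.84, 5.22 and 5.48 in knockout arrays, against 2.55, 3.90, 3.40, 3.37 and 3.05 in control arrays. The lowest knockout value was thus above the highest control value, and 4 of the 5 control values lay under the array median. Itga2 rose by 1.90 ± 0.22 on the log2 scale (SE, adjusted p = 0.0011 by limma) and ranked 63rd by p among all genes. Because the control values are dim, 3.73-fold compares array signals and need not match the ratio of transcripts. Leaving out any single array gave log2 fold changes of 1.72 to 2.06, with adjusted p from 0.000523 to 0.00545.

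Itga2 is also known from epithelia and platelets, so those markers stand beside it. Platelet and megakaryocyte markers, 9 genes, had means of 3.49 to 3.58 in knockout and 3.43 to 3.59 in control arrays, ranges that overlapped and lay under the array median. Itga2b, the alpha chain that defines platelets, read 3.99 ± 0.23 in knockout and 4.00 ± 0.21 in control arrays (SD, n = 5). With the cholangiocyte mean as a covariate the change of Itga2 was 1.75 ± 0.41 with an adjusted p of 0.219, and with the neutrophil mean it was 1.95 ± 0.47 with an adjusted p of 0.491. Neither list mean overlapped between the groups, and the SE of Itga2 in these fits was larger than without a covariate. The cholangiocyte mean was 6.49, 6.87, 5.11, 5.77 and 4.71 in knockout replicates 1 to 5. Among these arrays Itga2 was highest in replicate 5, next in replicate 1 and lowest in replicate 3, which follows that mean in neither direction. In control replicates 1 to 5 the mean was 3.74, 4.57, 4.19, 3.72 and 3.71. There both the mean and Itga2 were highest in replicate 2 and next in replicate 3. The lowest control array was replicate 1 for Itga2 and replicate 5 for the mean. A share of cholangiocyte RNA in the Itga2 signal was not tested.

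Itga1 and Itga2 are neighbours on chromosome 13 and are read from the same strand. The change of Itga1 minus the change of Itga2 was tested on the difference of both log2 values within each array. That difference was 4.36, 4.68, 5.16, 4.63 and 4.45 in knockout arrays, against 7.12, 6.29, 6.51, 6.45 and 6.84 in control arrays. It was lower in the knockout by -1.99 ± 0.20 (SE), and the groups did not overlap. An exact two-sided permutation test over the 252 splits of 10 arrays gave p = 0.00794, the smallest these splits can give, and 0.0317 after adjustment over the 4 pairs of chains compared. The pairs were chosen with earlier results of these data known, and the adjustment does not cover that choice. The measured genes next in order of start position, chosen after their values were seen, did not pass by limma. Mocs2, a gene of molybdenum cofactor synthesis listed before Itga2, was at -0.02 ± 0.14. Pelo, a ribosome rescue factor gene listed after Itga1, was at -0.41 ± 0.13 (adjusted p = 0.171). This order does not show whether a gene lies beside another or inside it.

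The bases upstream of both genes are printed because 2 adjacent genes of 1 family behaved differently. They come from RefSeq, build GRCm38.p6, and each is the 250 bases before the transcription start, 5' to 3' on the minus strand. Itga1 is at chr13:115101965-115102214 and Itga2 at chr13:114932101-114932350.
Itga1: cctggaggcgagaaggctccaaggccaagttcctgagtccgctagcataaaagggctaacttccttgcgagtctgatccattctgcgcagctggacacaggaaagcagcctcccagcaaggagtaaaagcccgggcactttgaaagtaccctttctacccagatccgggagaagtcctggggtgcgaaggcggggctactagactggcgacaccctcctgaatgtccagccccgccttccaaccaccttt
Itga2: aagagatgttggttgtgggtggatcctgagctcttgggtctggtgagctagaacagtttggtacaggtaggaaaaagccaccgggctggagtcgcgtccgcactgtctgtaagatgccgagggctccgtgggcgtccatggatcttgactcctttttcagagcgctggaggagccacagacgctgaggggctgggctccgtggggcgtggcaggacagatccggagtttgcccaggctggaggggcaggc
Neither window holds a GATA word (AGATAA or AGATAG or TGATAA or TGATAG on either strand), the E-box CACGTG bound by MYC, or a GC box (GGGCGG on either strand), so no letters are in capitals. Windows were in the table for 8 of the 10 chains, and none of those held a GATA word, against 26.5% of 32851 windows of this length. For Itga9 and Itgav the table's start lies downstream of the gene's first base. The E-box was also in none of them, against 6.02% of all windows. Itga3, Itga5, Itgb1 and Itgb5 had a GC box, as had 32.7% of all windows. A missing word says only that these letters are not in these windows.

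**Figure D3:**
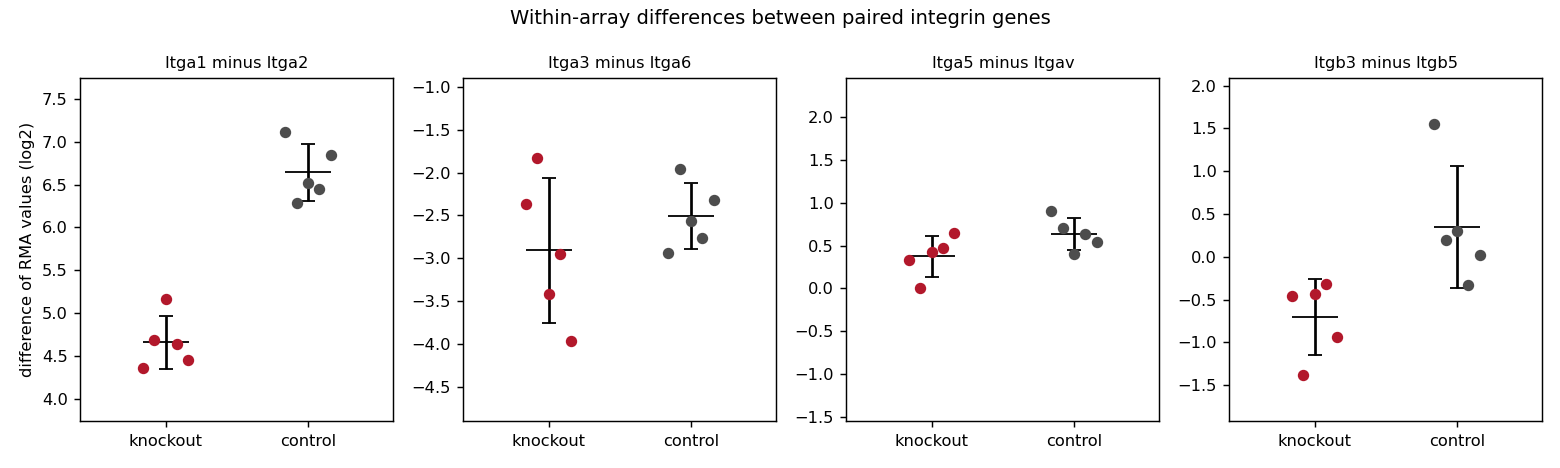
Within-array difference of log2 values (y axis) for 4 pairs of integrin chains with like partners or ligands, in 5 knockout and 5 control arrays. Points are arrays, the mark is the mean and the bar 1 SD. For Itga1 minus Itga2 the arrays lie between 4.36 and 5.16 in the knockout and between 6.29 and 7.12 in the control.

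Of the laminin-binding chains Itga6 rose, while Itga3 did not pass. Itga6, which holds endothelium and epithelium to basement membrane laminin, read 8.62, 8.37, 8.98, 8.70 and 9.14 in knockout arrays, against 7.46, 7.59, 7.84, 7.75 and 7.35 in control arrays. Every knockout array was above every control array, and all 10 were far above the array median. Itga6 rose by 1.16 ± 0.16 on the log2 scale (SE, adjusted p = 0.00272 by limma), ranking 98th by p. Leaving out single arrays moved the value between 1.07 and 1.26, with adjusted p from 0.0026 to 0.0111. Within the knockout the order of Itga6 over the 5 arrays was the reverse of that of the cholangiocyte mean: Itga6 was highest in replicate 5 and lowest in replicate 2, where that mean was 4.71 and 6.87. With the cholangiocyte mean as a covariate the change of Itga6 was 1.61 ± 0.23 (adjusted p = 0.0275 by limma), and with the neutrophil mean it was 1.42 ± 0.32 (adjusted p = 0.4).

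Itga3, a laminin receptor chain best known from epithelia, read 6.26, 6.54, 5.56, 5.76 and 5.16 in knockout arrays, against 4.51, 5.64, 5.28, 4.99 and 5.04 in control arrays. The groups overlapped, with knockout replicates 1 and 2 highest. The log2 fold change was 0.76 ± 0.27 (SE, 95% interval 0.17 to 1.35) with an adjusted p of 0.213 by limma. Itga3 followed the cholangiocyte mean within the knockout, being highest in replicates 2 and 1, where that mean was 6.87 and 6.49, and lowest in replicate 5. With this mean as a covariate the value turned to -0.41 ± 0.23 (adjusted p = 0.727). The test of whether Itga3 and Itga6 changed unequally gave -0.40 ± 0.42 (SE) and an exact permutation p of 0.389, also 0.389 adjusted over the 4 pairs, so a difference between them was not detectable with 5 arrays a group.

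**Figure D4:**
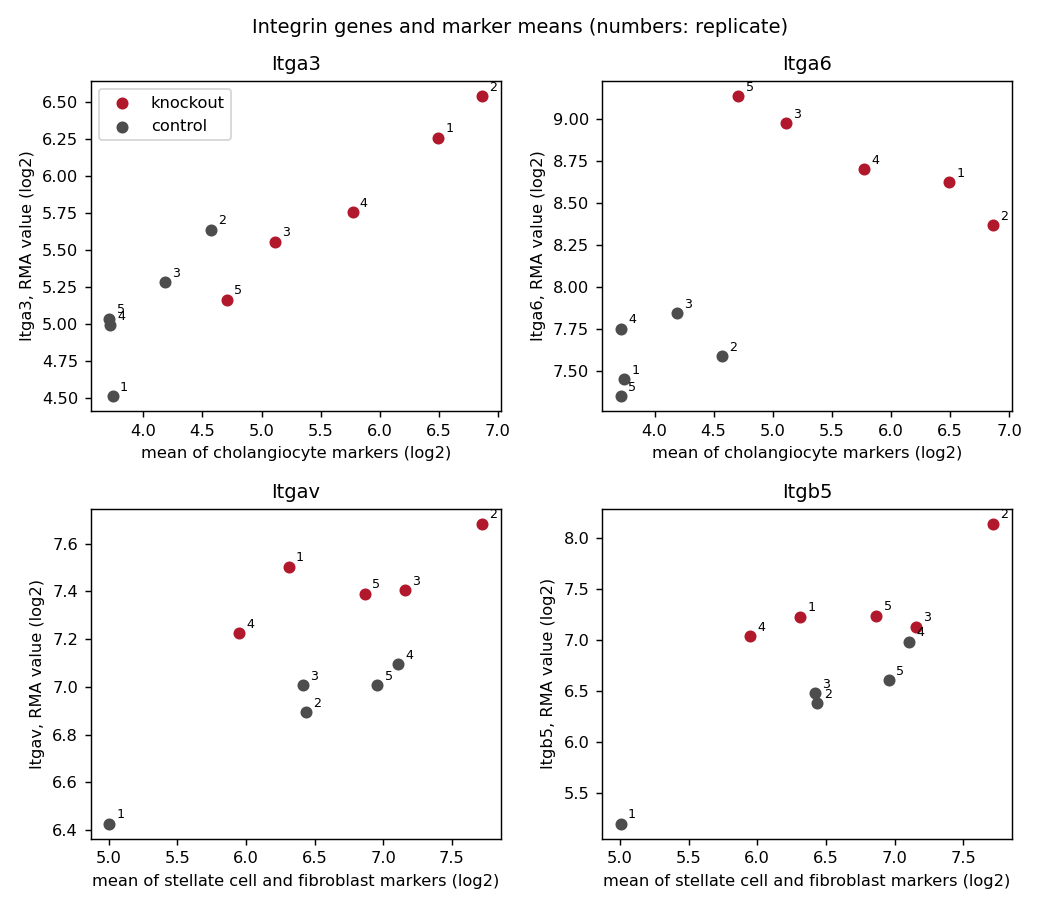
Values of Itga3 and Itga6 against the mean of 10 cholangiocyte markers (top) and of Itgav and Itgb5 against the mean of 12 markers of stellate cells and fibroblasts (bottom), all log2, 1 point per array with its replicate number. In the knockout arrays Itga3 is highest in replicate 2 (6.54) and Itga6 is highest in replicate 5 (9.14). Itgav and Itgb5 are highest in knockout replicate 2 and lowest in control replicate 1, as is the neutrophil mean, which is not drawn.

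Of the chains for fibronectin and other RGD ligands, neither alpha chain passed. Itga5, the main fibronectin receptor chain, read 7.84, 7.69, 7.83, 7.69 and 8.04 in knockout arrays, against 7.33, 7.60, 7.41, 7.73 and 7.55 in control arrays. The groups overlapped by 1 control array, replicate 4, which exceeded 2 knockout arrays. The log2 fold change was 0.29 ± 0.11 (SE, 95% interval 0.05 to 0.54, adjusted p = 0.255 by limma).

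Itgav read 7.50, 7.68, 7.40, 7.22 and 7.39 in knockout arrays, against 6.43, 6.89, 7.01, 7.09 and 7.01 in control arrays. The groups did not overlap, and control replicate 1 was the lowest. The log2 fold change of Itgav was 0.56 ± 0.14 (SE, adjusted p = 0.0764 by limma). Itgav passed in 1 of 21 alternatives, that with array weights (0.46 ± 0.11, adjusted p = 0.0391). Without single arrays the adjusted p by limma ran from 0.0601 to 0.18, and with the replicate block it was 0.192. The change of Itga5 minus that of Itgav was -0.26 ± 0.14 (SE), with an exact permutation p of 0.0952 and 0.127 adjusted over the 4 pairs.

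The beta chains that join Itgav are given next. Itgb3, the beta chain of the vitronectin receptor and of the platelet fibrinogen receptor, read 6.77, 6.75, 6.69, 6.71 and 6.30 in knockout arrays, against 6.75, 6.58, 6.78, 6.65 and 6.62 in control arrays. The groups overlapped, and knockout replicate 5 was the lowest array. The log2 fold change was -0.03 ± 0.11 (SE, 95% interval -0.27 to 0.22, adjusted p = 0.942 by limma). Itgb5, the other vitronectin receptor chain, read 7.23, 8.14, 7.13, 7.03 and 7.24 in knockout arrays, against 5.20, 6.38, 6.48, 6.98 and 6.60 in control arrays. The groups did not overlap, but by a narrow margin between 7.03 and 6.98, with knockout replicate 2 and control replicate 1 at the ends. Itgb5 was at 1.03 ± 0.31 on the log2 scale (adjusted p = 0.14 by limma), and at 0.74 without control replicate 1 (adjusted p = 0.106).

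The 2 beta chains differed in their change in these arrays, though neither passed by limma. Itgb3 minus Itgb5 within an array was -0.45, -1.38, -0.44, -0.32 and -0.94 in knockout arrays, against 1.55, 0.20, 0.30, -0.33 and 0.02 in control arrays. It was lower in the knockout by -1.05 ± 0.38 (SE), with control replicate 4 inside the knockout range. The exact permutation test gave p = 0.0159, and 0.0317 adjusted over the 4 pairs, which again does not cover how the pairs were chosen. Without control replicate 1 the difference was -0.75, with an adjusted p of 0.0476. Itgav and Itgb5 were ordered alike at the ends: both were lowest in control replicate 1 and highest in knockout replicate 2. The mean of the stellate cell and fibroblast markers was also lowest (5.00) and highest (7.72) in those arrays. So was the neutrophil mean (2.94 and 5.51). The cholangiocyte mean was highest (6.87) in knockout replicate 2 and lowest (3.71) in control replicate 5. What sets this order was not tested. With the stellate cell mean as a covariate Itgb5 was at 0.74 ± 0.16 (adjusted p = 0.0437 by limma) and Itgav at 0.45 ± 0.10 (adjusted p = 0.0579). With the cholangiocyte mean Itgb5 was at 0.50 ± 0.54 (adjusted p = 0.93) and Itgav at 0.35 ± 0.25 (adjusted p = 0.838). With the neutrophil mean Itgb5 was at 0.31 ± 0.60 and Itgav at 0.42 ± 0.29 (adjusted p = 0.9997 each). Those 2 list means did not overlap between the groups, whereas the stellate cell mean did.

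Itga9, a chain known for lymphatic and sinusoidal endothelium, was the member that fell. It read 8.69, 8.69, 8.92, 8.69 and 8.79 in knockout arrays, against 9.12, 9.23, 9.21, 9.19 and 9.19 in control arrays. The groups did not overlap and the control arrays lay within a narrow range. Itga9 fell by 0.43 on the log2 scale (SE 0.09, adjusted p = 0.0294 by limma). The call rests on the full set of arrays: it was lost when knockout array 1, 2 or 4, or any control array except the first, was left out, and the adjusted p then lay between 0.0739 and 0.0826 and the change between -0.43 and -0.41. It also ended with the replicate number as a block (adjusted p = 0.13), when arrays were scaled by pan-endothelial genes (0.258), and with the mean of the hepatocyte (0.0859), platelet (0.0738), cholangiocyte (0.661) or neutrophil (0.9997) markers as a covariate. The sinusoidal marker mean was lower in the knockout as well, as given above. Of its 10 genes 3 fell, and 8 were lower at an unadjusted p under 0.05 by limma.

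The genes whose values over the 10 arrays were most like those of the 3 called chains differ between them. For Itga2 these were Gcnt2, Nek6 and the immunoglobulin segment Ighj3 (Pearson's r of 0.98 each, n = 10 arrays). For Itga6 they were the basement membrane collagen genes Col4a2 and Col4a1 (0.978 and 0.976) and Nav3 (0.975), and for Itga9 the mannosidase gene Man2a1 (0.983), the reductase gene Msrb3 (0.981) and the ligand gene Bmp2 (0.976). These values are descriptions: the difference between the genotypes carries much of them, and they are the highest among 24704 genes.

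Among the other integrin chains, 1 of 17 rose and 16 did not pass, against 2.14% of all genes. The count was 2 when control array 1 or 4 was left out. The 1 was Itgam, the alpha chain of a leukocyte integrin of neutrophils and macrophages, at 4.73, 5.42, 4.98, 4.98 and 4.95 in knockout arrays, against 3.64, 3.56, 3.75, 3.95 and 4.52 in control arrays. No array overlapped. Itgam rose by 1.13 ± 0.19 on the log2 scale (adjusted p = 0.00966 by limma). Its usual partner Itgb2 was at 0.67 ± 0.16 (adjusted p = 0.0605). The neutrophil marker mean moved in the same direction, as given above, and with it as a covariate Itgam was at 0.70 ± 0.36 (adjusted p = 0.9997 by limma). The cholangiocyte mean in its place gave 1.13 ± 0.35 (adjusted p = 0.404). By sign 14 of the 17 were higher and 3 lower, with a median log2 fold change of 0.32. At an unadjusted p under 0.05 by limma 8 were higher and 1 lower, against 1747 and 1624 of all 24704 genes. Itgb2, Itga8, Itgb4 and Itgb8 were chosen after their values were seen and did not pass. Itga8, which binds nephronectin, was at -0.41 ± 0.12 (adjusted p = 0.122), with groups that did not overlap. Itgb4, the partner of Itga6 in epithelia, was at 0.50 ± 0.13 (adjusted p = 0.0762). Itgb8, which joins Itgav and frees TGF-beta from its latent form, was at 1.17 ± 0.36 (adjusted p = 0.148), highest in knockout replicate 1 (6.00) and next in replicate 2 (5.04), the arrays with the highest cholangiocyte means.

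Matrix proteins and other ligands of these receptors were higher in part. Of 30 measured ligand genes 7 rose, 0 fell by limma and 23 did not pass, against 1.3% higher and 0.846% lower over all genes. With an unadjusted p under 0.05 by limma 16 were higher and 2 lower, against 1747 and 1624 of all 24704 genes. The median log2 fold change of the ligands was 0.60. With the cholangiocyte mean as a covariate 2 of the 7 calls remained (Col4a1 and Col4a2), and with the neutrophil mean 0 remained. Fibronectin, Fn1, read 8.04, 8.32, 7.35, 7.25 and 7.44 in knockout arrays, against 5.51, 6.37, 6.33, 6.33 and 6.49 in control arrays, and rose by 1.47 ± 0.24 on the log2 scale (adjusted p = 0.00925 by limma), while its main receptor chain Itga5 did not pass. Fn1 was highest in knockout replicates 2 and 1, the arrays with the highest cholangiocyte means. With that mean as a covariate Fn1 was at 0.72 ± 0.35 (adjusted p = 0.676), and with the replicate block its adjusted p was 0.0525. Of 6 measured laminin chains 2 rose, Lamb1 by 1.25 ± 0.22 and Lamc1 by 1.13 ± 0.17. The other 4 did not pass: Lama2 was at 0.30 ± 0.25, Lama5 at 0.24 ± 0.16, Lamb2 at -0.02 ± 0.15 and the endothelial chain Lama4 at -0.29 ± 0.12 (adjusted p = 0.296). Of the collagen IV chains, ligands of the Itga1 and Itga2 receptors, Col4a2 rose by 1.18 ± 0.15 and Col4a1 by 1.07 ± 0.15. The 2 remaining were Vwf, von Willebrand factor (1.02 ± 0.19), and Mfge8, which bridges dying cells to the Itgav receptors (0.59 ± 0.12). Lama2, Lama4, Lama5, Lamb2, Col4a1, Vwf and Mfge8 were chosen after their values were seen. Mfge8 lost its call when knockout array 2, 3 or 4, or any control array except the first, was left out (largest adjusted p 0.0688), and was at 0.30 ± 0.22 with the neutrophil mean as a covariate (adjusted p = 0.9997). Vwf lost its call when knockout array 2 or 3, or control array 4 or 5, was left out (largest adjusted p 0.0612). The ligands named at the start for the Itga9 chain did not pass, and other ligands of that chain were not singled out. Tnc, tenascin-C, was at 0.62 ± 0.25, Emilin1 at -0.38 ± 0.17, Vcam1 at 0.34 ± 0.12 and Svep1 at 0.27 ± 0.17. Tnc, Emilin1, Vcam1 and Svep1 were also chosen after their values were seen.

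**Figure D5:**
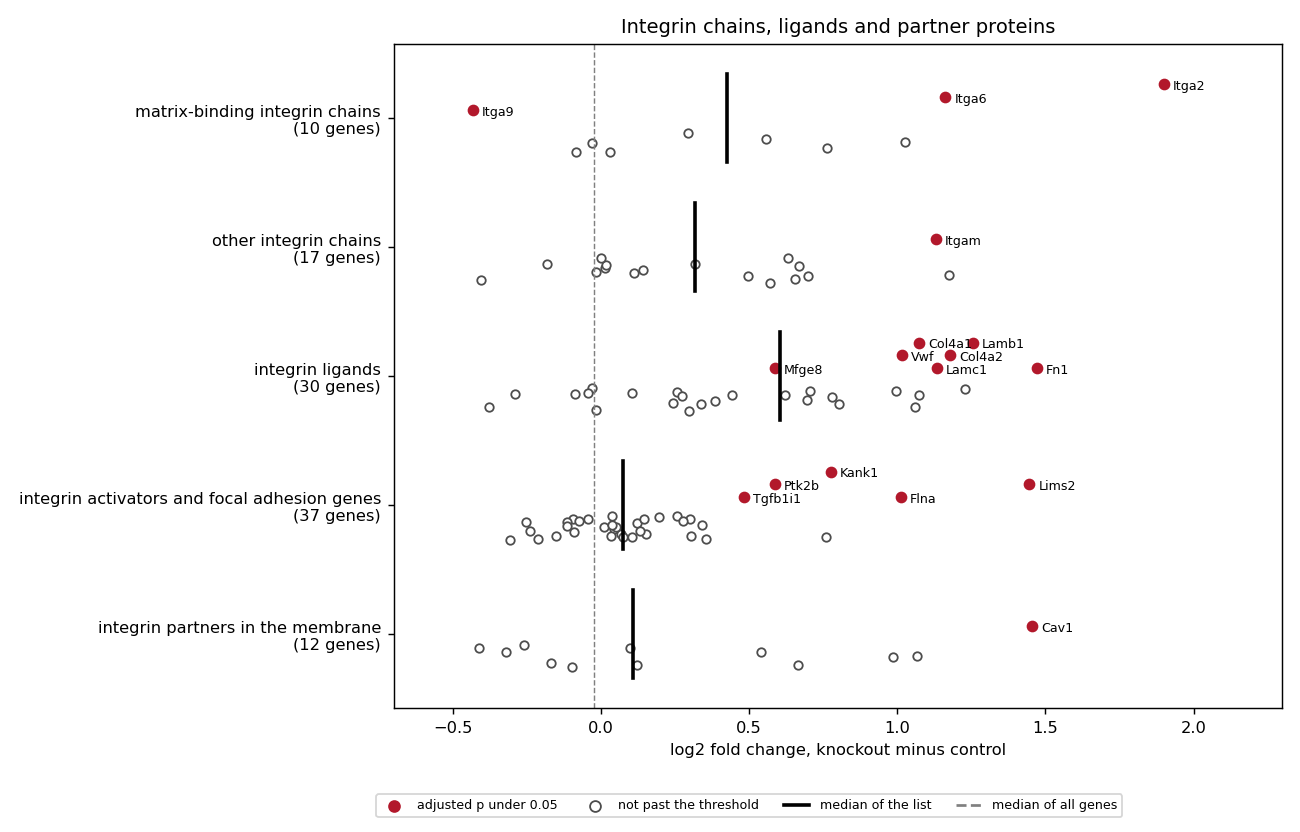
Log2 fold change, knockout minus control (x axis), of the 10 integrin chains and of 4 lists of related genes. Points are genes, filled where they passed the threshold, the vertical bar is the median of the list, and the dashed line the median of all genes. Called ligand, focal adhesion and membrane partner genes all lie to the right of 0, and Itga9 is the called gene to the left.

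Inside the cell integrins are switched on by talins and kindlins and linked to actin through focal adhesions. Of 37 measured genes of this group 5 rose, 0 fell by limma and 32 did not pass, against 1.3% higher and 0.846% lower over all genes. With an unadjusted p under 0.05 by limma 9 were higher and 2 lower, against 1747 and 1624 of all 24704 genes. The median log2 fold change of the 37 was 0.07. The call of Lims2 remained with the cholangiocyte mean as a covariate, and with the neutrophil mean 0 of the 5 did. The activators Tln1 (-0.05 ± 0.16) and Fermt2, a kindlin (-0.10 ± 0.09), and the linked kinase Ilk (0.04 ± 0.11) did not pass. These 3 were chosen after their values were seen. Lims2, an adaptor that binds the Ilk protein, read 6.80, 7.40, 7.73, 7.45 and 7.77 in knockout arrays, against 6.13, 6.16, 5.86, 5.89 and 5.88 in control arrays, with no overlap. It rose by 1.45 ± 0.17 on the log2 scale (adjusted p = 0.00129 by limma), while its relative Lims1 was at 0.15 ± 0.11 and was also chosen after its value was seen. Flna, the filamin that ties integrins to actin, rose by 1.01 ± 0.19 (adjusted p = 0.0171), a call lost when knockout array 2 or control array 5 was left out (largest adjusted p 0.0551). Flna was at 0.62 ± 0.31 with the cholangiocyte mean as a covariate (adjusted p = 0.686). Kank1, a talin-binding adaptor, rose by 0.77 ± 0.12 (adjusted p = 0.0054). That call ended with the replicate block (adjusted p = 0.0505), with scaling by pan-endothelial genes (0.0667), and with the cholangiocyte (0.331) or neutrophil (0.884) mean as a covariate. The calls of Ptk2b, a kinase related to focal adhesion kinase (0.59 ± 0.13, adjusted p = 0.044), and of Tgfb1i1, a paxillin relative (0.48 ± 0.10, adjusted p = 0.0333), each ended when most single arrays were left out. Tgfb1i1 was chosen after its value was seen. Of the 10 arrays, Ptk2b kept its call without control replicate 2 or 4 and reached an adjusted p of 0.113 without another, while Tgfb1i1 kept it without knockout replicate 4 or control replicate 1 and reached 0.0954. The count of 5 became 3 without knockout replicate 1, 3 or 5 or with control array 3 left out, and 2 without knockout replicate 2 or with control array 5 left out.

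Of 12 partners of integrins in the membrane, 1 rose, 0 fell by limma and 11 did not pass, against 1.3% higher and 0.846% lower over all genes. With an unadjusted p under 0.05 by limma 5 were higher and 2 lower, against 1747 and 1624 of all 24704 genes. The count of partners that passed was 2 without knockout replicate 3 or 5 and 3 without control replicate 1. The 1 was Cav1, caveolin, which read 8.58, 8.61, 8.49, 8.63 and 8.90 in knockout arrays, against 6.88, 7.36, 7.54, 7.02 and 7.13 in control arrays. The groups did not overlap, and Cav1 rose by 1.46 ± 0.14 (adjusted p = 0.000318 by limma). Cav1 with the cholangiocyte mean as a covariate was at 1.44 ± 0.26 (adjusted p = 0.0774), and with the neutrophil mean at 1.34 ± 0.29 (adjusted p = 0.372). Cd151, a tetraspanin that binds laminin receptors, was at -0.17 ± 0.14 (adjusted p = 0.647), and was chosen after its value was seen.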

How the data were processed

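RNA of 10 samples was hybridised to 1-colour Affymetrix arrays, per the labels. The authors' deposited values are log2 values made with RMA (background correction, quantile normalization, probe summary), per the submitters' processing notes. Chip definition and genome build: not given in the sources used here. Sorted values were identical in 9 arrays, and no further normalization was applied. Of 25428 probe sets, 24705 had 1 gene symbol, 0 had several and 723 were left out as unnamed here. 1 symbol with more than 1 probe set kept the brighter, leaving 24704 genes.

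Groups were compared with limma 3.58.1 (R 4.3.3; lmFit and eBayes without trend, covariates or filter), 5 against 5 arrays, two-sided, adjusted by Benjamini-Hochberg over all genes, and tested on simulated data. The number of arrays limits the precision. Intervals are 95% from the same fit. Errors of pair differences are the unpooled SE of the group means. The spread behind each p is that between pooled samples of 3 mice. The members, pairs, 4 related lists and 9 marker lists were chosen with earlier results of these data known. Named by rule were all members and Gata4, up to 4 called genes per list (up to 2 by p where none was called), and per called member the 3 genes of highest correlation. Any other gene named was chosen after its values were seen. Replicate numbers are shared by the groups, but same-numbered arrays did not deviate together (correlations -0.165 to 0.0389), so no block was used.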

Additional observations from a re-analysis of the deposited data

Results flagged for a closer look

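Of 66 groups of 5 arrays examined for the members, the pair differences and the related genes named, 5 had 1 array set apart by a wide gap (Dixon's test at its 95% critical value of 0.71), and chance gives about 1 in 20. Itgb3 read 6.30 in knockout replicate 5, against 6.69 to 6.77 in the other knockout arrays. Itgb5 read 8.14 in knockout replicate 2, against 7.03 to 7.24 in the others. In control replicate 1, Fn1 read 5.51 (6.33 to 6.49 in the other controls), Lamc1 6.79 (7.46 to 7.69) and Mfge8 7.90 (8.26 to 8.31). Control replicate 1 is the array that correlated least with the rest.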

How the results depend on the processing

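The calls of Itga2 and Itga6 held in 19 and 20 of 21 alternatives, and that of Itga9 in 8. These alternatives share most of their data, as leaving out each of the 10 arrays in turn is among them. The setting without dim genes is no check of Itga2, which was kept there through the knockout group alone. Of the integrin chains, 3 passed with all arrays, 2 to 3 without single arrays, 1 with the cholangiocyte mean and 0 with the neutrophil mean as a covariate. The 529 calls over all genes became 287 to 737 without single arrays, 1070 with array weights, 267 scaled by pan-endothelial genes, and 322, 351, 49 and 0 with the hepatocyte, platelet, cholangiocyte and neutrophil means. With the neutrophil mean 0 ligands, 0 focal adhesion genes, 0 other chains and 0 membrane partners passed by limma (6, 5, 2 and 2 at an unadjusted p under 0.05, as did 3 of the 10 chains and 1205 of all genes). With the cholangiocyte mean these were 2, 1, 0 and 0 (6, 6, 2 and 1 unadjusted). In that fit 3 of the 10 chains and 1920 of all 24704 genes had an unadjusted p under 0.05 by limma. The other chains numbered 5 with array weights and 3 with dim genes left out, and 1 to 2 without single arrays. The membrane partners numbered 4 with array weights and 1 to 3 without single arrays. The focal adhesion genes numbered 2 scaled by pan-endothelial genes, 3 with the platelet or stellate cell mean, and 2 to 4 without single arrays.

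With the replicate block 275 genes (200 higher, 75 lower) and 2 focal adhesion genes passed. Paired sign flips left the differences at -1.99 (Itga1 minus Itga2) and -1.05 (Itgb3 minus Itgb5) with an adjusted p of 0.25 each by an exact permutation test, which 5 pairs cannot bring under 0.05. Values that changed sign were Itgb1 (-0.0072 with array weights, -0.0019 to 0.063 without single arrays), Itgb3 (0.032 with array weights, -0.061 to 0.057 without single arrays), and, with the cholangiocyte mean, Itga1 (0.066), Itga3 (-0.41), Gata4 (0.20) and Itgb8 (-0.032). The cause was not tested. Without scanner files, no other background correction was tried, and depth is set by signal over background: Itga2 is dim in control arrays, and it passed the filter on dim genes through the knockout group alone.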
